A study of Arabidopsis thaliana with 45 samples.

Results

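Promoter-listed windows of the *Arabidopsis thaliana* genome that were unmethylated in at least 1 group of plants are described here. A window is a stretch of 200 bp for which a CG methylation level, the fraction of cytosines followed by guanine that were read as methylated, was listed for 2 groups whose levels differed by at least 20 percentage points. Members were selected on the levels themselves: windows listed as promoter, with no transposable element (TE), whose lowest listed level in any group was below 0.1. There were 306 such windows among 2331 different CG windows, and among 622 promoter-listed windows without a TE. The other 316 had levels of 0.1 or more in every group listed for them. A further 417 windows listed as gene body, without a TE and with a lowest level below 0.1, were set beside the members. Among all 200 bp windows of the 5 chromosomes that hold a CG, 0.411% were listed in any comparison.

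Rosettes came from 3 generations of Columbia plants grown in hydroponics, and 5 samples were sequenced for each of 9 groups. Plants of the parent generation (P0) grew from seeds that had never been irradiated, S1 plants from seeds of P0 plants, and S2 plants from seeds of S1 plants. Each dose rate was a line of its own, with the same treatment in every generation, so S1γ0 and S2γ0 descend from plants under background radiation only. In each generation plants received gamma radiation from a caesium source for 14 days at 110 mGy/h (γ110) or 30 mGy/h (γ30), or background radiation only (γ0). Per the methods, γ0 plants stood in a chamber of their own, with matched light and temperature. Radiation and chamber thus cannot be told apart in comparisons with γ0. The age at the start of exposure was 14 days in the sample labels and 7 days in the text of the series. The deposited tables give 1 level per group, with neither the levels of single samples nor the coverage, so the values below carry no error between plants and no new test of a difference in level could be run from them. Every listed window had passed the authors' own test at a p-value limit of 0.05, whose values are not used here. Since only methylation was measured, the tissue could not be checked against marker genes.

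In plants, CG methylation is copied to the new strand after replication by the maintenance enzyme MET1, so that a pattern can pass through cell divisions and to the offspring. Methylation over a promoter usually goes with silencing of the gene, whereas CG methylation within the transcribed part of many moderately expressed genes leaves them active. CHG methylation (H stands for A, C or T) is kept by another enzyme, chromomethylase 3, and is typical of silenced repeats rather than of gene bodies.

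The sequences of 10 members are shown because the largest, most recurrent or best placed differences were found in them. All are RefSeq sequences of the plus strand of TAIR10.1, written 5′ to 3′, and the capitals mark the CG sites that the levels refer to. The first 6 lie upstream of the named gene by its strand and outside any protein-coding gene.
AT5G05830, chr5:1755001-1755200: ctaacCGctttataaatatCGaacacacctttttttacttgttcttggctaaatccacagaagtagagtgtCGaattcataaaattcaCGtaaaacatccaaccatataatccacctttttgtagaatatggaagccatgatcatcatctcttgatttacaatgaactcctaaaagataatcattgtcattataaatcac
LCR12, chr5:19830001-19830200: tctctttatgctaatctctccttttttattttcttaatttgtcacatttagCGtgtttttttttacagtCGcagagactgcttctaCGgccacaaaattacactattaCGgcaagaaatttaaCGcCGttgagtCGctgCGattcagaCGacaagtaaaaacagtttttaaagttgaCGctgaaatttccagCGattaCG
LSM7, chr2:1178801-1179000: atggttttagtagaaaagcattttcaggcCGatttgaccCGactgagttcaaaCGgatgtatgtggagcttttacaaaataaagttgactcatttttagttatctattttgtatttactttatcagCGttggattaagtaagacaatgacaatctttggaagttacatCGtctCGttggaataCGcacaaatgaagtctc
SPT, chr4:17413001-17413200: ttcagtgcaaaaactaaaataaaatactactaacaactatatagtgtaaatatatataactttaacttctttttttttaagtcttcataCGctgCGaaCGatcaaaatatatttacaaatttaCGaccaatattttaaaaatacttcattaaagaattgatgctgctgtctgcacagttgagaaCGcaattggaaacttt
GDU6, chr3:12351401-12351600: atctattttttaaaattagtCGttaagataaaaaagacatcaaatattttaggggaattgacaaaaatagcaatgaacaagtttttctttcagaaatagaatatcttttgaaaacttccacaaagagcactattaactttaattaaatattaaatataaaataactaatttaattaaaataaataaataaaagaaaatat
HDG6, chr4:13037401-13037600: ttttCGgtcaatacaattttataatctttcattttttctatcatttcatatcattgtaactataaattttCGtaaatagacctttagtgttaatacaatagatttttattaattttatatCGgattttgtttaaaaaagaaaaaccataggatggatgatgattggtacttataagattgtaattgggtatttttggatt
The other 4 lie in other places. Those of BHLH130, ARK2 and LOG7 lie inside a neighbouring gene, and that of ARK2 is also 1116 bp upstream of ARK2 itself. The AT5G39473 window lies 2739 bp beyond the 3′ end of the named gene and 458 bp upstream of another gene, AT5G39471.
BHLH130, chr2:17609601-17609800: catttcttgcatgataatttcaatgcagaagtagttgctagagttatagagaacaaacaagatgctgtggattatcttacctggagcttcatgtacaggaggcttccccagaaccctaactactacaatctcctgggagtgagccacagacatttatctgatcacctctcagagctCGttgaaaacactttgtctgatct
ARK2, chr1:324001-324200: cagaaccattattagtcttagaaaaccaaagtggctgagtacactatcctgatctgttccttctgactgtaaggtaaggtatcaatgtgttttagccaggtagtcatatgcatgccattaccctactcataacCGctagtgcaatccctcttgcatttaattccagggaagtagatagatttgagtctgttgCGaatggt
LOG7, chr5:1920201-1920400: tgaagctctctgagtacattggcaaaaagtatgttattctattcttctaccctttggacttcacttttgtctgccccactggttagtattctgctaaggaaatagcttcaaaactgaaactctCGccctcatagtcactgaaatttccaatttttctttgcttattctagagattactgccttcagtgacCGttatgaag
AT5G39473, chr5:15796201-15796400: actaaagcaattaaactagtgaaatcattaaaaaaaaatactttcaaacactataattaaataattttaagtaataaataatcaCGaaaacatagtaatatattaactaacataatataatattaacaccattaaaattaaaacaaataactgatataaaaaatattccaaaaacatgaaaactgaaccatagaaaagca
LCR12 held 12 CG sites in its 200 bp, LSM7 7 and SPT 5, whereas BHLH130, GDU6 and AT5G39473 held 1 each.

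The lowest listed level had a median of 0.0143; it was below 0.01 in 110 members and exactly 0 in 18. The highest listed level ranged from 0.205 to 0.915, with a median of 0.357. It was below 0.4 in 184 members and reached 0.6 in 45. By comparison, the highest level had a median of 0.691 in promoter-listed windows methylated in every listed group and 0.323 in the gene-body windows. A lowest level below 0.1 and a highest level above 0.2 follow from the selection and from the minimum difference of 20 percentage points, and so does the gap between them.

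Most low levels were found in S1γ30 and S2γ30, the groups with the most windows. In P0γ30, 49 of 77 members with a level were below 0.1. In S1γ30 this held for 152 of 255, and in S2γ30 for 120 of 287. S2γ0 had 65 of 115 below 0.1, and S1γ0 8 of 23. For γ110, 5 of 8 members were below 0.1 in S1γ110 and 2 of 6 in S2γ110. No member had a level for P0γ0 or P0γ110. Members at or above 0.1 had similar medians in the large groups, 0.391 in P0γ30, 0.329 in S1γ30, 0.330 in S2γ30 and 0.372 in S2γ0.

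**Figure D1:**
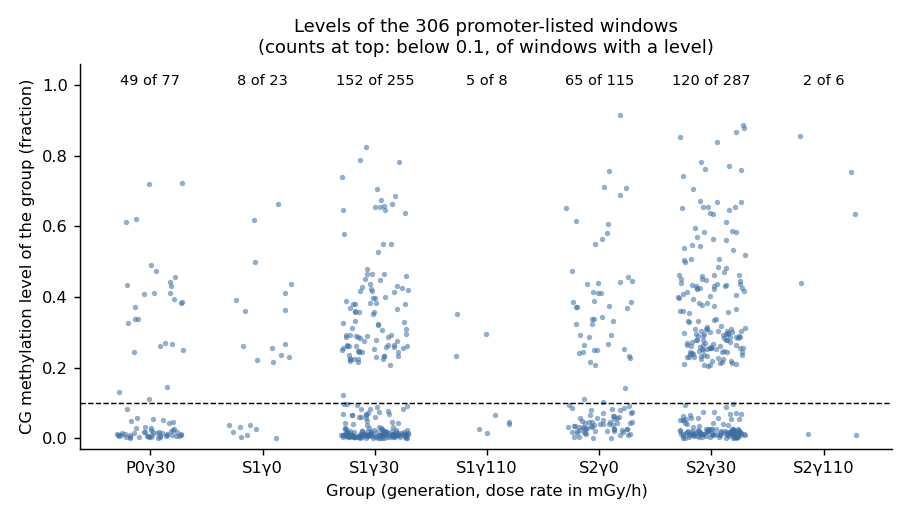
CG methylation level (fraction) of the member windows in each group with a level. Each point is 1 window, the dashed line is the limit of 0.1 that chose the members, and the counts give the windows below it. In S2γ30, 120 of 287 windows lie below the line.

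S2γ30 against S1γ30, the change from the first to the second offspring generation at 30 mGy/h, held 238 of the 306 members. Of these, 141 had the higher level in S2γ30 (59.2%, exact 95% interval 52.7 to 65.5%) and 97 the lower. Over all CG windows listed in that comparison, 56.0% were higher in S2γ30. Since these same levels selected the members, nothing is read from this or the later shares of direction. Members that were higher had a median level of 0.310 in S2γ30 and 0.0104 in S1γ30. Those that were lower had a median of 0.0156 in S2γ30 and 0.329 in S1γ30. The low medians and the lower bound of the high levels are set by the selection, and single high levels reached 0.886.

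The 3 largest increases in that comparison were found at BHLH130, LCR12 and AT3G27350. BHLH130, named for a basic helix-loop-helix transcription factor, had a level of 0.878 in S2γ30 and 0.00926 in S1γ30. Its single CG lies in a coding exon of AT2G42270, a helicase of the U5 small nuclear ribonucleoprotein. At LCR12, which codes for a small secreted cysteine-rich protein, the level was 0.886 in S2γ30 and 0.0403 in S1γ30. AT3G27350, annotated as an ATRX-like transcriptional regulator, had 0.838 in S2γ30 and 0.0180 in S1γ30 in a window 1059 bp upstream of its start. These windows were close to fully methylated in S2γ30, far above the median of the members.

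The largest decreases were at XI-F, AT3G23950 and MVD1. XI-F, which lies in the annotated untranslated region of the myosin XIF, had 0.0550 in S2γ30 and 0.825 in S1γ30. At AT3G23950 the level was 0.0273 in S2γ30 and 0.786 in S1γ30, and the single CG lies in an intron of the neighbouring gene AT3G23940, a dehydratase. MVD1, a gene of the mevalonate pathway, had 0.0244 in S2γ30 and 0.780 in S1γ30. Its CG lies in an intron of AT2G38695, which the annotation calls a retrotransposon polyprotein and for which no TE was listed.

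**Figure D2:**
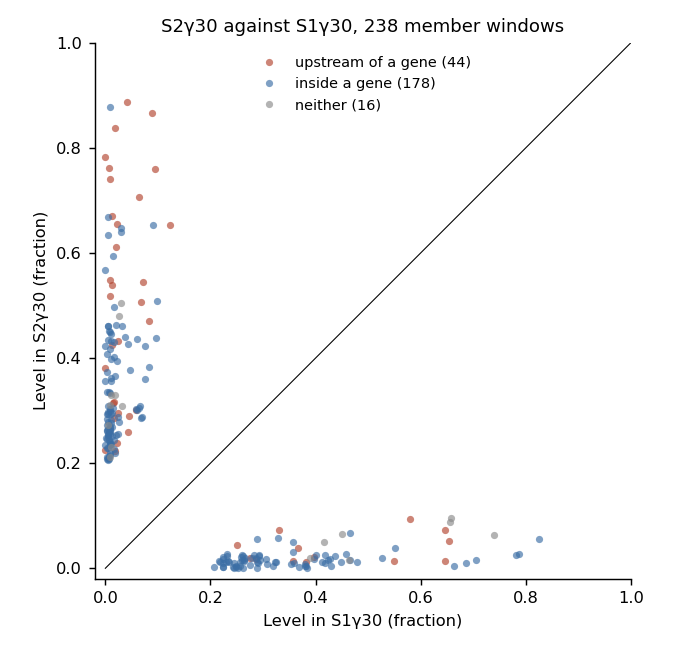
CG methylation level in S2γ30 (vertical axis, fraction) and in S1γ30 (horizontal axis, fraction) of the 238 members listed in that comparison, coloured by their place in the annotation. The 141 windows above the diagonal were higher in S2γ30 and the 97 below it lower, and no window lies near the diagonal because only windows with a difference of at least 20 percentage points were listed.

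S2γ30 against S2γ0 contrasted irradiated with control plants of the same generation and held 114 members. The level was higher in S2γ30 in 67 (58.8%, exact 95% interval 49.2 to 67.9%), beside 59.4% of all CG windows listed in that comparison. BHLH130 again showed the largest increase, with 0.878 in S2γ30 and 0.0301 in S2γ0. CASP2, a gene of the Casparian strip, followed with 0.851 in S2γ30 and 0.0714 in S2γ0, at a single CG in an intron of SPY, which represses gibberellin responses. AT5G05830, coding for a zinc finger protein, had 0.741 in S2γ30 and 0.0249 in S2γ0. In all of them the control plants were close to unmethylated and the irradiated plants mostly methylated. The largest decrease was at HVA22I, with 0.0106 in S2γ30 and 0.915 in S2γ0, at a single CG in a coding exon of the exoribonuclease gene XRN2. XI-F had 0.0550 in S2γ30 and 0.756 in S2γ0. At RAPTOR2, a gene of the TOR kinase complex, the level was 0.00980 in S2γ30 and 0.710 in S2γ0. There the irradiated plants were the unmethylated ones.

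S2γ30 against P0γ30 held 55 members, of which 40 were higher in S2γ30 (72.7%, exact 95% interval 59.0 to 83.9%). The share over all CG windows of that comparison was 62.5%. LSM7, a small ribonucleoprotein gene, had 0.769 in S2γ30 and 0.00926 in P0γ30 in a window 971 bp upstream of its start. At BHLH130 the level was 0.878 in S2γ30 and 0.00862 in P0γ30. AT5G05830 had 0.741 in S2γ30 and 0.0143 in P0γ30. BHLH130 and AT5G05830 thus led both this comparison and that with S2γ0, through the same S2γ30 level. The largest decreases were those of XI-F, ILA and AT2G14793. XI-F had 0.0550 in S2γ30 and 0.721 in P0γ30. ILA had 0.0144 in S2γ30 and 0.613 in P0γ30. AT2G14793, a pseudogene, had 0.0628 in S2γ30 and 0.621 in P0γ30.

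Among members listed for S1γ30 against P0γ30, 12 of 24 were higher in S1γ30 (exact 95% interval of the share 29.1 to 70.9%), beside 49.5% of all CG windows listed. The largest increase was at GDU6, of a family that promotes amino acid export, with 0.637 in S1γ30 and 0.0421 in P0γ30. Next came AT5G45410, whose window lies in a coding exon of RPA70C, a single-stranded DNA binding protein, with 0.551 in S1γ30 and 0.0171 in P0γ30. MYB23, a regulator of trichome development, had 0.579 in S1γ30 and 0.0823 in P0γ30 in a window 325 bp upstream of its start. GDU6 and MYB23 lie in the promoter by strand, and the AT5G45410 window does not. Decreases were led by AT5G39473, with 0 in S1γ30 and 0.722 in P0γ30. SCRL5, coding for a small secreted cysteine-rich protein, had 0.00965 in S1γ30 and 0.443 in P0γ30, and AT1G29220 had 0.00889 in S1γ30 and 0.410 in P0γ30.

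S1γ30 against S1γ0 held 22 members, 7 of which were higher in S1γ30 (31.8%, exact 95% interval 13.9 to 54.9%), beside 51.2% of all CG windows listed in it. GDU6 had 0.637 in S1γ30 and 0.0370 in S1γ0. RTL1, a ribonuclease III-like gene, had 0.380 in S1γ30 and 0.0368 in S1γ0, in a coding exon of the kinase gene AT1G80640. PAC, required for chloroplast development, had 0.322 in S1γ30 and 0.00448 in S1γ0, in a coding exon of REF4, a subunit of the Mediator complex. GDU6 was the only one of these 3 with its window upstream of the named gene and outside genes. Lower levels in S1γ30 were found at AT5G39473 (0 in S1γ30 and 0.663 in S1γ0), at AT1G58248, a plant thionin gene (0.0936 in S1γ30 and 0.619 in S1γ0), and at AT5G35425 (0.0253 in S1γ30 and 0.498 in S1γ0).

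Only 5 comparisons with γ110 held members, with 1 to 5 each. S1γ110 against S1γ30 held 5. AT5G28673 had 0.0397 in S1γ110 and 0.675 in S1γ30, TET16 0.0262 in S1γ110 and 0.466 in S1γ30, and AT2G19700 0.0159 in S1γ110 and 0.423 in S1γ30. LOG7, which activates cytokinins, had 0.350 in S1γ110 and 0.0122 in S1γ30, and AT1G16560 0.294 in S1γ110 and 0 in S1γ30. Levels below 0.1 were thus found at either dose rate. S1γ110 against S1γ0 held AT2G25740 alone, with 0.234 in S1γ110 and 0 in S1γ0. In S2γ110 against S1γ110, BRX, a regulator of root growth, had 0.634 in S2γ110 and 0.0644 in S1γ110, in a window 1490 bp upstream of its start. Against S2γ0, S2γ110 had 0.753 at AT3G01060, where S2γ0 had 0, and 0.0104 at RAPTOR2, where S2γ0 had 0.710. S2γ110 against S2γ30 held ARK2, an armadillo repeat kinesin gene, with 0.441 in S2γ110 and 0.0237 in S2γ30, and PME61, with 0.0118 in S2γ110 and 0.255 in S2γ30.

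Of the 306 members, 188 were listed in 1 comparison, 80 in 2, 35 in 3 and 3 in 4. The share listed in 2 or more was 38.6% (exact 95% interval 33.1 to 44.3%). It was 19.0% in promoter-listed windows methylated in every listed group and 38.6% in the gene-body windows. The comparisons share groups, so a level of S2γ30 that stands apart can enter through S1γ30, P0γ30 and S2γ0 at once. No difference between these shares was tested. Each group had the same level for a window in every table that listed it, at all 934 repeated levels.

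The 3 members listed in 4 comparisons had different patterns. ARK2, whose 2 CG sites lie in an intron of the cyclophilin-like gene AT1G01940, had 0.491 in P0γ30, 0.437 in S1γ30 and 0.0237 in S2γ30, while S2γ110 had 0.441 and S2γ0 0.443. S2γ30 was thus the only one of its 5 listed groups near 0. PME61 was the reverse, with 0.00798 in P0γ30, 0.0235 in S1γ30 and 0.255 in S2γ30, beside 0.0118 in S2γ110 and 0.0164 in S2γ0. At LOG7 the window lies in 2-Cys Prx B, a chloroplast peroxiredoxin that removes peroxides. Its level was 0.395 in P0γ30, 0.0122 in S1γ30 and 0.0157 in S2γ30, while S1γ110 had 0.350 and S2γ0 0.372. Both offspring generations at 30 mGy/h were low there, and the other 3 listed groups were not.

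For 33 members the levels of P0γ30, S1γ30, S2γ30 and S2γ0 were all listed. Almost all S2γ0 levels came from the comparison with S2γ30, which needed a difference of at least 20 percentage points. That S2γ30 stood apart in these windows thus largely follows from the selection, and nothing is read from the counts. In 22 of them S2γ30 was the highest, at 0.229 to 0.878, and the other 3 groups were between 0 and 0.131. In 10 it was the lowest, at 0.00307 to 0.0628, and the other 3 groups were between 0.00965 and 0.825. LOG7 was the exception. AT5G05830 is an example of the first kind, with 0.0143 in P0γ30, 0.00940 in S1γ30 and 0.741 in S2γ30, and 0.0249 in S2γ0. SPT, whose product SPATULA is a transcription factor of carpel development, had 0.0455 in P0γ30, 0.122 in S1γ30 and 0.654 in S2γ30, and 0.0449 in S2γ0. AT1G35500 had 0.131 in P0γ30, 0.0117 in S1γ30 and 0.670 in S2γ30, and 0.0337 in S2γ0. AT5G35510, a disease resistance gene of the TIR-NBS-LRR class, had 0.0293 in P0γ30, 0.0296 in S1γ30 and 0.647 in S2γ30, and 0.0209 in S2γ0. In 20 of the 22 windows all of the other 3 groups were below 0.1, and SPT and AT1G35500 were the exceptions.

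XI-F is an example of the opposite kind, with 0.721 in P0γ30, 0.825 in S1γ30 and 0.0550 in S2γ30, and 0.756 in S2γ0. The ILA window lies upstream of AMT1;2, an ammonium transporter gene, by 797 bp. It had 0.613 in P0γ30, 0.550 in S1γ30 and 0.0144 in S2γ30, and 0.582 in S2γ0. SCRL5 was low in both offspring generations, with 0.443 in P0γ30, 0.00965 in S1γ30 and 0.00937 in S2γ30, and 0.439 in S2γ0.

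In 56 members with levels for P0γ30, S1γ30 and S2γ30, the generation farthest from the others was S2γ30 in 38, higher in 28 and lower in 10. It was S1γ30 in 16, higher in 10 and lower in 6, and P0γ30 in 2. Levels were listed only where groups differed by at least 20 percentage points, and the comparisons with S2γ30 held the most members. That a generation stood apart, and which, thus largely follows from the selection, and nothing is read from these counts. AT5G39473 is a window where S1γ30 was farthest, with 0.722 in P0γ30, 0 in S1γ30 and 0.782 in S2γ30, and S1γ0 had 0.663. AT1G08530, whose window lies in the neighbouring gene ALB1, had 0.336 in P0γ30, 0.00602 in S1γ30 and 0.335 in S2γ30, and S1γ0 had 0.364. In the other direction, AT1G50710 had 0.00826 in P0γ30, 0.308 in S1γ30 and 0.00733 in S2γ30, and S1γ0 had 0.0178. PAC had 0.00526 in P0γ30, 0.322 in S1γ30 and 0.0119 in S2γ30. At each of these windows S2γ30 was again close to P0γ30, and S1γ30 stood apart.

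**Figure D3:**
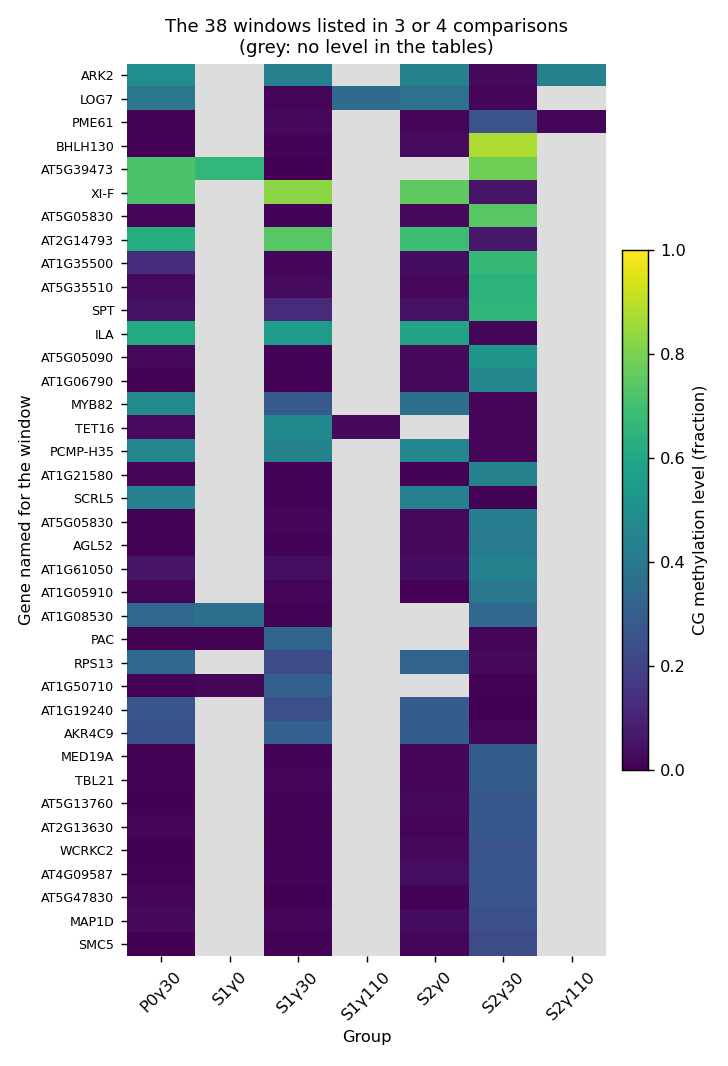
CG methylation level (colour, fraction) of the 38 members listed in 3 or 4 comparisons, 1 row per window with the gene named for it and 1 column per group. Grey cells have no level. S2γ30 is the bright or the dark exception in most rows, as at BHLH130 with 0.878 and at XI-F with 0.0550. Rows were chosen by number of comparisons, and the comparisons with the most members all hold S2γ30. The pattern thus largely follows from the choice of rows.

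The promoter label did not follow the strand of the named gene. For 268 members the named gene was found in the annotation. The window was upstream of it by strand in 125 (46.6%, exact 95% interval 40.5 to 52.8%), downstream in 133 and overlapping in 10. By coordinates, 258 of the 268 windows were at lower positions than the named gene and 0 at higher ones. A window at lower coordinates than a minus-strand gene lies beyond its 3′ end. The share upstream was 43.4% in the promoter-listed windows methylated in every listed group.

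Most members, 226 (73.9%, exact 95% interval 68.6 to 78.7%), overlapped a protein-coding gene, and 63.5% of those with a difference of at least 0.3 did. Of these, 212 lay in plus-strand genes only and 9 in minus-strand genes only. In the gene-body windows, 387 of 414 lay in minus-strand genes only. The CG sites of the members in genes were in coding exons only in 105, in introns only in 25, in both in 65, and at least partly in an untranslated region in 30. Some 57 members (18.6%, exact 95% interval 14.4 to 23.4%) were intergenic with the start of a protein-coding gene within 2000 bp downstream, and 23 fitted neither place. Among promoter-listed windows methylated in every listed group, 85.4% lay in a gene and 9.18% upstream of one.

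**Figure D4:**
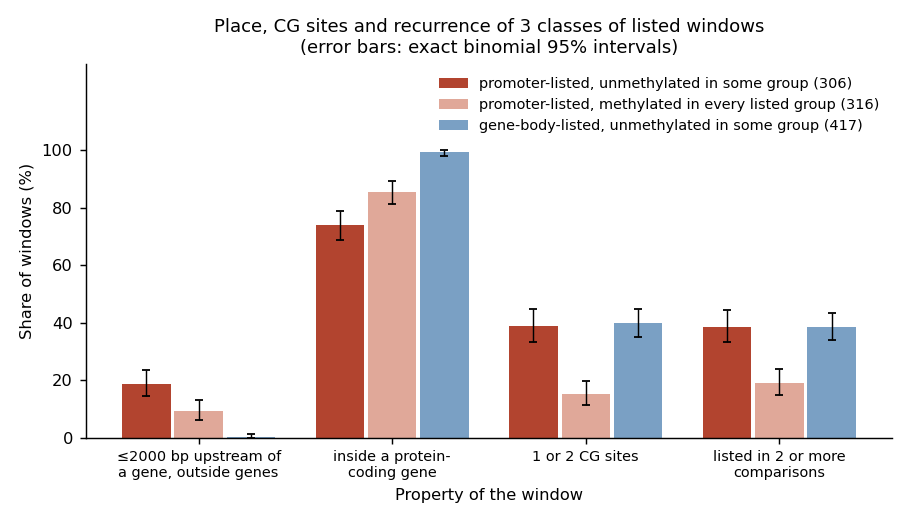
Share of windows (%) with each of 4 properties, for the 306 members, the 316 promoter-listed windows methylated in every listed group and the 417 gene-body windows. Error bars are exact binomial 95% intervals that leave out the spread between plants. Upstream windows made up 18.6% of the members and 9.18% of the other promoter-listed windows.

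The 57 windows upstream of a gene were those that also lay outside any protein-coding gene. Other members, such as ARK2, lay upstream of the named gene but inside a neighbouring one, and are not among them. The 57 lay 72 to 1985 bp from the nearest gene start, with a median of 760 bp, and in 31 of them that gene was also the named one. Their highest level had a median of 0.518, against 0.307 in the 226 members in genes, and 22 of the 57 reached 0.6 while 17 of the 226 did. Their GC content was lower, with a median of 28.0% against 38.0%. In S2γ30 against S1γ30, 31 of the 44 that were listed were higher in S2γ30, beside 56.0% of all CG windows of that comparison. The corresponding count for members in genes was 101 of 178.

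Among the upstream windows with the nearest gene named, the 10 with the largest differences were picked by the same levels, so nothing is read from their directions. LCR12, AT3G27350, LSM7, AT5G05830, AT1G35500 and SPT were given above. AT1G50060, coding for a secreted protein of the CAP family, had 0.866 in S2γ30 and 0.0882 in S1γ30, 521 bp upstream of the start. AT1G48280, annotated as a hydroxyproline-rich glycoprotein, had 0.761 in S2γ30, 0.00787 in S1γ30 and 0.0833 in S2γ0. The other members of this set were GDU6, given above for S1γ30, and NADP-ME2. At NADP-ME2, the gene of a cytosolic malic enzyme, the level was 0.0357 in S2γ30 and 0.651 in S2γ0.

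Regulatory genes were found downstream of several of these windows. HDG6 is the name listed for FWA, a homeobox gene that DNA methylation at its promoter keeps silent in vegetative tissue, a textbook case. Its window lies 760 bp upstream of the annotated start and was chosen here after its values were seen. Whether this window is part of the stretch whose methylation silences FWA was not tested. Its level was 0.285 in S2γ30, 0.0159 in S1γ30 and 0.0565 in S2γ0. A second member, listed for MSH3, lies in a coding exon of FWA and had 0.0106 in S2γ30 and 0.224 in S1γ30, so the windows at FWA differed in direction. ERF109, the redox responsive transcription factor RRTF1, had 0.316 in S2γ30 and 0.0161 in S1γ30 in a window 676 bp upstream of its start, which was likewise picked after its values were seen.

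The highest level of a member varied with its number of CG sites. Members held 1 to 12 sites, with a median of 3. The 34 members with 1 site had a median highest level of 0.638, and 19 of them reached 0.6. The median was 0.408 in the 85 members with 2 sites, 0.288 in the 72 with 3, 0.286 in the 55 with 4 and 0.298 in the 60 with 5 or more. In windows with 3 or more sites a level of 0.3 is a mean over sites, and the tables do not give the sites apart. Coverage is not listed either, so the part of read depth in these values was not tested.

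Place and number of sites were partly separate. Among members with 2 sites the median highest level was 0.572 in the 14 upstream of a gene and 0.398 in the 65 inside one. With 1 site the order was the other way, 0.642 in the 14 upstream and 0.710 in the 13 inside a gene. With 3 or more sites it was 0.316 in 29 upstream windows and 0.286 in 148 inside a gene.

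Windows with 1 CG site made up 11.1% of the members (exact 95% interval 7.82 to 15.2%), 2.53% of the promoter-listed windows methylated in every listed group, and 50 of the 417 gene-body windows. Over all windows of the 5 chromosomes with a CG, 10.2% held 1 site. Among the 170 members with a difference of at least 0.3 the share with 1 site was 19.4%. With 1 or 2 sites the shares were 38.9% in the members, 15.2% and 39.8% in the other 2 classes, and 24.7% in the genome. The GC content had a median of 37.0% in the members and 39.5% in the promoter-listed windows methylated in every listed group.

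**Figure D5:**
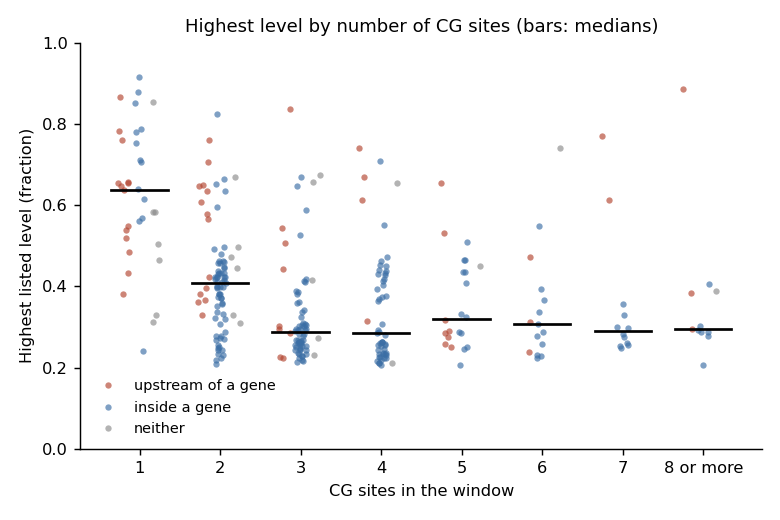
Highest listed level (vertical axis, fraction) by the number of CG sites in the window (horizontal axis), 1 point per member, coloured by place, with medians as bars. Windows with 1 site have a median of 0.638, while those with 3 or 4 sites have medians of 0.288 and 0.286.

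Few members had neighbours. Only 12 touched another member and 20 touched a listed CG window of any class. In 5 of the 6 touching pairs both windows had the same direction. At AT5G05830, the window next to the one above had 0.00479 in P0γ30, 0.0128 in S1γ30 and 0.424 in S2γ30, and 0.0208 in S2γ0, so both windows were higher in S2γ30. The second LCR12 window had 0.612 in S2γ30, 0.0206 in S1γ30 and 0.141 in S2γ0. At AT1G53860 the pair had 0.471 and 0.259 in S2γ30, and 0.0836 and 0.0430 in S1γ30. At AT3G29634 it had 0.565 and 0.655 in S2γ30, and 0.0124 and 0.0164 in P0γ30. The exception was the pair named for AT4G35220, a cyclase family gene, in a coding exon of AT4G35210. Its first window had 0.308 in S2γ30 and 0.00581 in S1γ30, and the adjoining one 0.00769 in S2γ30 and 0.353 in S1γ30, which are opposite directions within 400 bp. These pairs were picked after their values were seen.

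CHG methylation is a readout that the choice of members did not use. Only 5 windows were listed for CHG in all tables, and 2 of them were members, both upstream of a gene. Members made up 306 of the 2331 windows listed for CG. A CHG level was likewise listed only where groups differed by at least 20 percentage points. In the AT5G05830 window at chr5:1755001-1755200 the CHG level was 0.315 in S2γ30, 0 in S1γ30, 0.00549 in P0γ30 and 0.0263 in S2γ0. In the LCR12 window at chr5:19830001-19830200 it was 0.487 in S2γ30 and 0.00696 in S1γ30. Both windows were thus higher in S2γ30 in CG and in CHG, and with 2 windows nothing more is read from this. For the other members no CHG level was listed, so it is unknown here. CHH methylation was listed in 0 windows.

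Genes named for or overlapped by members were grouped by 8 lists made from the annotated products. Unmatched names and products worded otherwise were missed, so genes of these kinds can be absent from the counts. The list of DNA repair and damage response held 7 members (2.29%), beside 1.46% of all listed CG windows. It left out the PAP16 window in RECA3, the AT1G05910 window in NTH2 and the AT5G45410 window in RPA70C. MSH3, with its window in FWA, was described above. AT2G19490, a recA-type recombination gene, had 0.00398 in S2γ30 and 0.664 in S1γ30, and its window lies in a coding exon of the histone chaperone gene NAP1;2. The AT4G35530 window lies in the mismatch repair gene MLH3 and had 0.0675 in S2γ30, 0.466 in S1γ30 and 0.387 in S2γ0. PARP1 had 0.402 in S2γ30, 0.0169 in S1γ30 and 0.0433 in S2γ0, in a window that overlaps both PARP1 and LBD14. AT1G19530, annotated as a DNA polymerase epsilon subunit, had 0.264 in S2γ30, 0.00243 in S1γ30 and 0.260 in S1γ0, and SMC5, a chromosome maintenance gene, 0.229 in S2γ30, 0.00543 in S1γ30 and 0.0119 in S2γ0. None of the 7 windows lay within 2000 bp upstream of its list gene and outside genes. The one upstream window near a gene of this list was that of ATTPS2, 590 bp upstream of KU70 of the end-joining pathway, with 0.0130 in S1γ30 and 0.361 in S1γ0.

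The transcription factor list held 15 members (4.90%), beside 3.52% of all listed CG windows, and 7 members lay upstream of a gene on it. The windows named for BHLH130, HDG6 and ERF109, given above, were not among the 15. WOX8, an embryo patterning gene, had 0.0560 in S2γ30 and 0.607 in S2γ0, 286 bp upstream of its start. ZHD3, a homeobox gene, had 0.539 in S2γ30 and 0.0118 in S1γ30. AGL79 and MYB108, named after their values were seen, had 0.382 and 0.225 in S2γ30, and both had 0 in S1γ30. The MYB82 window, in contrast, lay in another gene, AT5G52580. The AT2G20410 window lay in AT2G20400, which is the gene on this list. MYB82 had 0.472 in P0γ30, 0.288 in S1γ30 and 0.0189 in S2γ30, and AT2G20410 had 0.0152 in S2γ30 and 0.424 in S1γ30. The 7 upstream windows thus held both directions.

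Protein kinases held 12 members (3.92%), beside 5.53% of all listed CG windows. AT5G41190 was the largest, in a coding exon of the leucine-rich repeat kinase gene AT5G41180, with 0.498 in S2γ30, 0.0172 in S1γ30 and 0.0627 in S2γ0. The ATOPT3 window, which lies in the list gene AT4G16360, had 0.0173 in S2γ30 and 0.336 in S2γ0. AT2G24990 had 0.315 in S2γ30 and 0.0138 in S1γ30, and SRK2C 0.293 in S2γ30 and 0.00254 in S1γ30. Cell wall and cytoskeleton genes held 9 members (2.94%), beside 2.92%. Besides XI-F and ARK2, AT5G06630, an extensin-like gene, had 0.0190 in S2γ30, 0.527 in S1γ30 and 0.438 in S2γ0. GAUT6, which takes part in pectin synthesis and holds the AT1G06790 window, had 0.462 in S2γ30, 0.00441 in S1γ30 and 0.0217 in S2γ0. AT1G05660 had 0.432 in S2γ30 and 0.0238 in S1γ30, and APPB1 0.0212 in S2γ30 and 0.389 in S2γ0.

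The remaining lists held 1 to 4 members each. The ribosome list held 4 (1.31%, beside 0.815%), RPL40B with 0.462 in S2γ30 and 0.0325 in S1γ30, RPL36C with 0.0698 in S2γ30 and 0.432 in P0γ30, AT1G14210 with 0.0199 in S2γ30 and 0.265 in S1γ30, and RPL9 with 0.00510 in S2γ30 and 0.257 in S1γ30. RPL9 was on the ribosome list by its name. The other 3 were on it through the gene that the window lies in, which is AT1G14205 for AT1G14210. The names RPL40B and RPL36C were not matched to the annotation. Nor were RPS13, RPL13B and RPP3A, whose windows were therefore left off the list. The antioxidant list held 3 (0.980%, beside 0.729%), both LOG7 windows in 2-Cys Prx B and WCRKC2, a thioredoxin gene. WCRKC2 had 0 in P0γ30, 0.00942 in S1γ30 and 0.264 in S2γ30. Splicing genes held 2 (0.654%, beside 0.558%), AT3G56790 with 0.205 in S2γ30 and 0.00513 in S1γ30, and SCL28 with 0.0136 in S2γ30 and 0.216 in S1γ30. DNA methylation and demethylation genes held 1 (0.327%, beside 0.515%), the SDH7A window in the DNA glycosylase gene AT3G47830, with 0.333 in S2γ30 and 0.00824 in S1γ30. That list left out VIM2, which holds the AT1G66060 window in a coding exon. This window had 0.408 in P0γ30, 0.384 in S1γ30 and 0 in S2γ30. At these small counts no list was set apart from the others.

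Short motifs that contain CG were counted on both strands of the windows. ACGT, the core of many bZIP and bHLH sites, was present in 65 of 306 members (21.2%) and in 31.1% of all windows with a CG. CACGTG, the G-box, was found in 3 members (0.980%) and in 2.31% of all windows, each also counted under ACGT. CCGAC, the core of the drought and cold element, was found in 21 members (6.86%, genome 10.3%), and GCCGCC, the ethylene response element, in 4 (1.31%, genome 2.25%). Of the 57 upstream windows, 11 held ACGT, at AT5G05830, ERF109, ILA, SCRL5, WOX8, AGL79 and ATTPS2 among them, and 5 held CCGAC, with AT1G35500 and LSM7 among them. Members held a median of 3 CG sites and windows of the genome a median of 4, and the part of that in the 4 shares was not tested.

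At the limit of 0.1, the members just inside were AT3G25233, with a lowest level of 0.0968 and a highest of 0.438, and AT4G20325, with 0.0977 and 0.509. Just outside were LRX1, with 0.102 and 0.541, and DTXL4, with 0.104 and 0.603.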

How the data were processed

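Whole genome bisulfite libraries of 45 samples, 5 for each of 9 groups, were processed by the authors in CLC Genomics Workbench against the TAIR10 genome, with cytosine contexts kept apart. Sites needed a coverage of at least 5 in at least 3 samples, and 200 bp windows were kept by a p-value limit of 0.05 and a minimum difference of 20%. Per the methods, the nearest gene came from CLC and the nearest TE from bedtools, and R 3.5.0 adjusted the p-values. The methylation levels that the authors deposited are fractions from 0 to 1, with 1 value per group. Columns that hold the authors' p-values, adjusted p-values and differences were not used. Of 18 tables, 10 had rows and 8 had a header line alone. Coverage was not used here, so the depth behind each level is unknown.

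CG entries (3353) were joined into 2331 windows by chromosome and start, and levels of a group repeated across tables agreed within 1e-06. Places, CG sites and GC content were computed against RefSeq TAIR10.1. Every listed CG window held a CG there, which 4.84% of genome windows lack. Named genes were matched by symbol or synonym within 50 kb, and 38 names of members were left unmatched. Intervals are exact Clopper-Pearson at 95%. They take each window as 1 independent trial and hold nothing of the variation among plants. The scripts, in Python 3.11.15 with pandas 2.3.3, NumPy 2.4.6, SciPy 1.17.1 and matplotlib 3.10.9, were tested on simulated data. Alternatives were other limits for the lowest level, a larger difference, TE windows kept, and joined or differently placed windows.

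The members and the gene lists were chosen with earlier results of these data known. Named were the windows listed in the most comparisons (up to 10), the 3 largest increases and decreases of each comparison with 20 or more members, the members of the smaller ones (1 item is not reported here), up to 6 per gene list, the 2 on either side of the limit, and the 10 largest differences upstream of the named gene. HDG6, MSH3, ERF109, ATTPS2, AGL79, MYB108, AT1G08530 and the touching pairs were added after their values were seen.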

Additional observations from a re-analysis of the deposited data

How the results depend on the processing

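Of 34 alternatives tried for 10 results, 31 left the value within 1.5 times or within its binomial interval. The other 3 came from keeping only windows with a difference of at least 0.3. This left 170 members in place of 306, lowered the share inside a protein-coding gene to 63.5% against 73.9%, and raised the share with 1 CG site to 19.4% against 11.1%. The number of members was 254 with a limit of 0.05, 363 with 0.2, 392 with TE windows kept and 299 with neighbours joined. No paired analysis was possible because the tables hold 1 level per group, and for the same reason no sample could be left out in turn. Without coverage, the error of a level, above all in windows with 1 CG site, is unknown.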
